A study of Sus scrofa with 6 samples.

Results

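The acute phase proteins of the pig were examined in liver RNA of newborn piglets. The set was taken by Ensembl pig symbols and has 9 genes, HP, CRP, LBP, ITIH4, ITIH1, ITIH2, ITIH3, HAMP and ORM1. Of these 9, the 6 genes ITIH4, ITIH1, ITIH2, ITIH3, CRP and LBP matched a row among the 26733 genes of each expression table. HP, HAMP and ORM1 did not match a row by identifier and are not analysed here.

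The piglets were Landrace x Yorkshire crosses, and the treatment was given to their mothers. High-Low sows ate feed with 0.39% tryptophan in the morning and 0.13% in the afternoon, and 2×Trp sows ate feed with 0.26% at both meals. Each maternal diet has 3 liver libraries, and the title of the series frames the work around negative effects of tryptophan in the diet. Whether each library is a separate piglet or litter is not stated in the labels. The p-values therefore reflect the spread between libraries, and that spread could be technical.

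The acute phase response is the change in the plasma proteins made by hepatocytes during inflammation or injury, driven mainly by interleukin-6 and interleukin-1 acting through STAT3, C/EBP and NF-kB factors. Positive acute phase proteins rise in plasma and negative ones, such as albumin and transthyretin, fall. In pigs ITIH4 is known as pig major acute phase protein (pig-MAP), and it is used with CRP and haptoglobin as a blood marker of disease and stress.

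Expression is given in FPKM, a measure scaled for transcript length and library size, as the deposited values were read. The FPKM totals ran from 956426 to 1230288 per library. Low values moved in steps set by single reads, which put the relative depth of the libraries between 0.936 and 1.32, with 2×Trp replicate 1 at 1, while the absolute depth is unknown. Summed FPKM of 9 hepatocyte markers were 54201, 66046 and 42749 in High-Low libraries 1, 2 and 3, against 50934, 60086 and 44773 in 2×Trp libraries 1, 2 and 3. The groups overlapped in this sum. It is not independent of the acute phase genes, since ALB, TTR, TF, APOA1 and AHSG are also listed below as negative ones and FGB as a positive one. With equal weight per gene, the mean log2 deviation of the 8 tested markers was 0.48, 0.09 and -0.33 in High-Low libraries 1, 2 and 3. It was -0.35, 0.20 and -0.09 in 2×Trp libraries 1, 2 and 3. One of these markers, AHSG, was listed at 0 in all 6 libraries, and an exact 0 in such values can be a failed estimate.

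None of the 6 measured members differed between the diets past the threshold (limma on log2(FPKM + 1), Benjamini-Hochberg adjusted p under 0.05 over the 10901 genes tested). The share called over all genes was 0.00917%, which is 1 gene. At an unadjusted p under 0.05 the count of members was 0 as well, where 3.16% of all genes reached it. Of the 6 members, 2 had a positive log2 fold change (High-Low minus 2×Trp) and 4 a negative one. Their median was -0.20, against -0.0038 over all genes tested. The groups did not overlap for 2 of the 6, where this held for 7.18% of all genes tested. ITIH2 was higher in High-Low without overlap, as were 3.06% of all genes, and ITIH1 was lower without overlap, as were 4.12%.

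**Figure D1:**
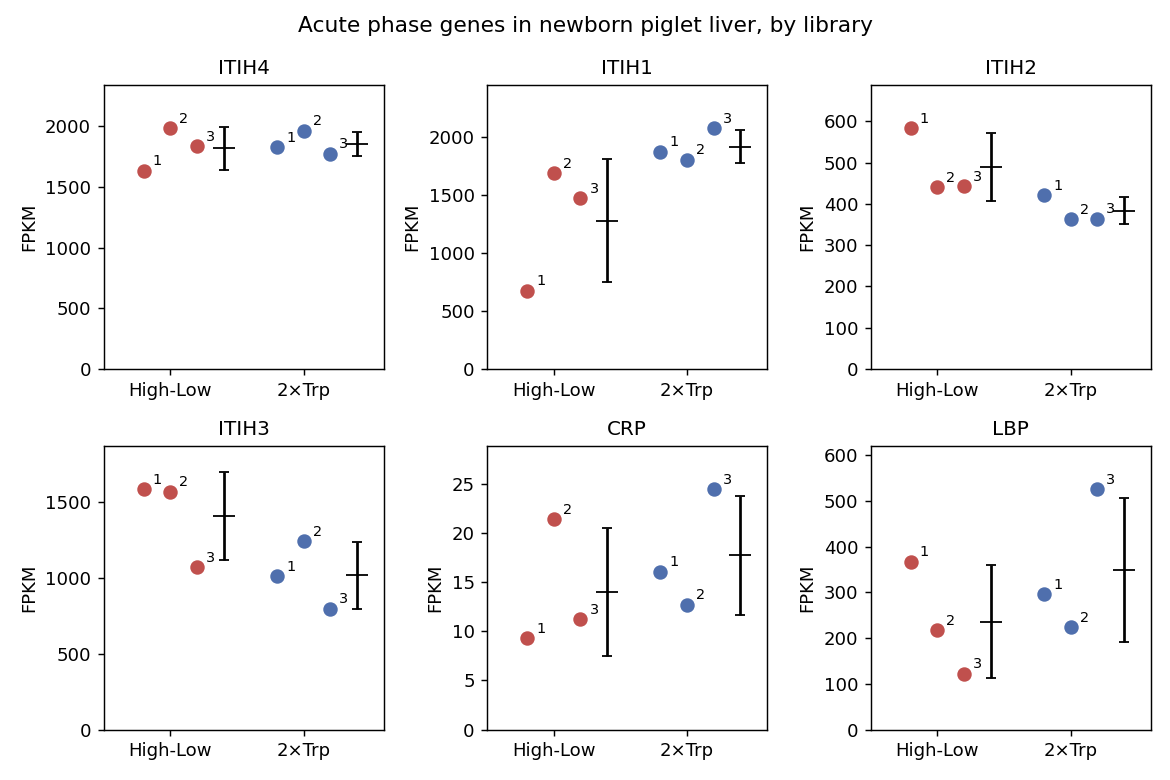
FPKM of the 6 measured acute phase genes by library (points, numbered by replicate) with the group mean and SD (black bar, n = 3) for High-Low on the left and 2×Trp on the right of each panel. ITIH4 stays between 1634 and 1985 FPKM in the 6 libraries, ITIH1 is lower and ITIH2 higher in High-Low with no overlap, and CRP and LBP spread widely within both groups.

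ITIH4, the pig major acute phase protein, had the narrowest range of the members, as a ratio of highest to lowest library, and the highest mean over the 6 libraries, though ITIH1 was higher in 2×Trp replicates 1 and 3. Its level was 1634, 1985 and 1835 FPKM in the High-Low livers, against 1830, 1964 and 1776 FPKM in the 2×Trp livers. High-Low replicates 1 and 2 held the lowest and the highest value, and the groups overlapped fully. The highest library stood at 1.21 times the lowest, and 98.5% of the genes tested had a wider range over the 6 libraries. Those genes span all levels, while ITIH4 ranked 105 by mean among them, and a comparison with genes of like level was not made. ITIH4 averaged 1818 ± 176 FPKM in High-Low and 1857 ± 96.8 FPKM in 2×Trp (SD, n = 3 each). The log2 fold change was -0.03 (SE 0.17), with a 95% interval from -0.42 to 0.36 and an adjusted p of 0.998 in limma. The sign of this small difference turned to 0.041 without High-Low replicate 1 and to 0.0078 without 2×Trp replicate 2. In the susScr3 assembly used for the tables ITIH4 lies on the forward strand at chr13:38197433-38208928.

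ITIH1, ITIH2 and ITIH3 encode heavy chains that are linked to the light chain bikunin, a protease inhibitor cut from the AMBP product. ITIH1 and ITIH2 chains join bikunin in inter-alpha-inhibitor, and the ITIH3 chain joins it in pre-alpha-inhibitor. The heavy chains can be passed on to hyaluronan in the extracellular matrix. ITIH4 is related to them in sequence but carries no bikunin.

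ITIH1 stood at 677, 1693 and 1474 FPKM in High-Low replicates 1, 2 and 3, against 1879, 1807 and 2080 FPKM in 2×Trp replicates 1, 2 and 3. All 3 High-Low values lay below all 3 2×Trp values, and High-Low replicate 1 lay far below the other two. The group means were 1282 ± 535 FPKM in High-Low and 1922 ± 141 FPKM in 2×Trp (SD, n = 3 each). The log2 fold change was -0.69 (SE 0.34), with a 95% interval from -1.49 to 0.12 and an adjusted p of 0.998 in limma. It was -0.28 without High-Low replicate 1.

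High-Low replicate 1 also held the lowest summed FPKM of markers for several other cell types. Erythroid markers (6 with a row, none at 0 throughout) summed to 1817 to 7199 FPKM in High-Low and 6170 to 15893 in 2×Trp, and the lowest sum was that of High-Low replicate 1. Endothelial markers (7 with a row) summed to 89.7 to 184 FPKM in High-Low and 156 to 190 in 2×Trp, again lowest in High-Low replicate 1. Macrophage markers (5 with a row) summed to 246 to 444 FPKM in High-Low and 413 to 572 in 2×Trp, with the same library lowest. Single genes made up most of 2 of these sums. In High-Low replicate 1, HBB held 1793 of the 1817 FPKM and C1QA 190 of the 246 FPKM. Gene by gene, that library was lowest for 4 of 5 tested erythroid, 5 of 7 endothelial and 4 of 5 macrophage markers. TRIM10 (erythroid) and MARCO (macrophage) were instead lowest in 2×Trp replicate 1. The part of these markers in the ITIH1 values was not tested. In bulk tissue fewer cells of a type and less RNA per cell cannot be told apart.

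ITIH2 went the other way in value, with 583, 440 and 442 FPKM in the High-Low livers, against 420, 363 and 364 FPKM in the 2×Trp livers. Every High-Low value lay above every 2×Trp value, though the gap between 440 and 420 FPKM was small. The means were 488 ± 82.0 FPKM in High-Low and 383 ± 32.7 FPKM in 2×Trp (SD, n = 3 each). The log2 fold change was 0.34 (SE 0.19), with a 95% interval from -0.10 to 0.79 and an adjusted p of 0.998 in limma. Without High-Low replicate 1 it was 0.21.

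ITIH3 had 1588, 1570 and 1073 FPKM in High-Low livers, against 1012, 1243 and 797 FPKM in 2×Trp livers. The groups overlapped, because High-Low replicate 3 fell below 2×Trp replicate 2. The means were 1411 ± 292 FPKM in High-Low and 1018 ± 223 FPKM in 2×Trp (SD, n = 3 each), and the log2 fold change was 0.47 (SE 0.25, 95% interval from -0.10 to 1.05, adjusted p = 0.998 in limma). Without 2×Trp replicate 3 it was 0.31.

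The summed level of the heavy chain genes lay within the replicate spread in both diets, while its make-up varied between libraries. ITIH1 to ITIH4 summed to 4999 ± 622 FPKM in High-Low and 5179 ± 183 FPKM in 2×Trp (SD, n = 3 each). ITIH4 made up 34.9% to 38.0% of this sum in High-Low and 35.4% to 36.5% in 2×Trp. The share of ITIH1 was 15.1%, 29.8% and 30.6% in High-Low replicates 1, 2 and 3, against 36.5%, 33.6% and 41.4% in 2×Trp replicates 1, 2 and 3. ITIH3 took 35.4%, 27.6% and 22.2% in High-Low, against 19.7%, 23.1% and 15.9% in 2×Trp. The ratio of ITIH1 to ITIH3 was 0.43, 1.08 and 1.37 in High-Low, against 1.86, 1.45 and 2.61 in 2×Trp, with no overlap. This ratio was chosen after the values were seen, so it is a description without a test, and scaling of a library cannot change it. ITIH1 exceeded ITIH3 in 5 of 6 libraries, the exception being High-Low replicate 1.

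**Figure D2:**
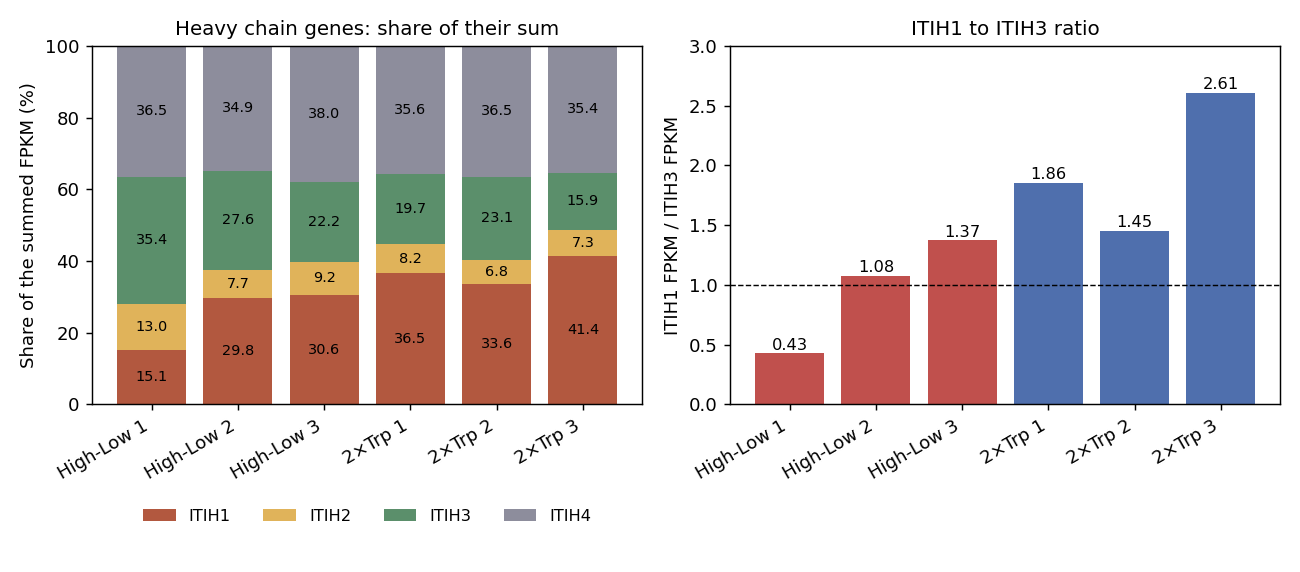
Left, the share of each heavy chain gene in the summed FPKM of ITIH1 to ITIH4 by library, in percent. Right, the ratio of ITIH1 to ITIH3 FPKM by library, with High-Low in red, 2×Trp in blue and a dashed line at a ratio of 1. The ITIH4 share is nearly level at 34.9% to 38.0%, and the ratio lies between 0.43 and 1.37 in High-Low and between 1.45 and 2.61 in 2×Trp.

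In susScr3 the genes ITIH1 (chr13:38088459-38101576), ITIH3 (chr13:38106334-38120182) and ITIH4 follow each other on the forward strand, and the gap between ITIH1 and ITIH3 is 4757 bases. ITIH2 lies apart on the reverse strand at chr10:69732402-69752309, beside ITIH5. The 77250 bases between ITIH3 and ITIH4 hold an unnamed feature on the reverse strand, Novel00307 at chr13:38123876-38125227, which starts 3693 bases after ITIH3. Its values were above those of all members, at 1940, 4424 and 2426 FPKM in High-Low, against 3115, 3997 and 2986 FPKM in 2×Trp, with overlapping groups. It was chosen after its values were seen. The other feature between them, ENSSSCG00000011452, has no symbol and had 2.93 to 4.51 FPKM.

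AMBP, the gene of the bikunin chain, had 6695, 9774 and 5664 FPKM in High-Low, against 8023, 10411 and 7966 FPKM in 2×Trp. The groups overlapped, and the log2 fold change was -0.28 (SE 0.25, adjusted p = 0.998 in limma). The summed FPKM of ITIH1, ITIH2 and ITIH3 was 0.44 ± 0.076 of AMBP in High-Low and 0.38 ± 0.047 in 2×Trp (SD, n = 3 each). Of the genes listed as partners in the inter-alpha-inhibitor system, AMBP included, 3 of 7 with a row were tested and 0 passed in limma, 1 at an unadjusted p under 0.05. CD44, the cell surface receptor for hyaluronan, had 10.1, 11.9 and 11.3 FPKM in High-Low, against 20.4, 14.0 and 24.7 FPKM in 2×Trp, with no overlap and an adjusted p of 0.998 (log2 fold change -0.74, SE 0.24). ITIH5, a heavy chain gene expressed in many tissues, had 5.69 to 9.08 FPKM in High-Low and 3.56 to 7.74 FPKM in 2×Trp. TNFAIP6, whose product transfers heavy chains to hyaluronan, was listed at 0 in all 6 libraries. HAS2, which makes hyaluronan, reached at most 0.029 FPKM, and the matrix genes VCAN and PTX3 stayed below 0.5 FPKM.

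CRP encodes C-reactive protein, a pentraxin that binds phosphocholine on microbes and damaged cells and activates complement. It was the lowest member, with 9.32, 21.4 and 11.2 FPKM in High-Low livers, against 16.04, 12.7 and 24.5 FPKM in 2×Trp livers. The highest value was that of 2×Trp replicate 3, High-Low replicate 2 came next, and the groups overlapped. The means were 14.0 ± 6.49 FPKM in High-Low and 17.7 ± 6.06 FPKM in 2×Trp (SD, n = 3 each). The log2 fold change was -0.36 (SE 0.36), with a 95% interval from -1.19 to 0.48 and an adjusted p of 0.998 in limma. Leaving out 2×Trp replicate 3 gave -0.11, and leaving out High-Low replicate 2 gave -0.69.

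The CRP row lies on the forward strand at chr4:98764964-98772729 of susScr3. RefSeq lists 2 adjacent pig genes under the symbol CRP in Sscrofa11.1, a later assembly. An unnamed gene, ENSSSCG00000021186 at chr4:98754378-98757413, ends 7550 bases before the CRP row. It had 68.0, 108 and 27.7 FPKM in High-Low, against 48.9, 40.5 and 56.8 FPKM in 2×Trp, which is above CRP in every library. The sources used here do not pair it with a symbol. How alike these genes are in sequence was not examined, and how the authors counted any reads shared between genes is not stated. The CRP level is therefore uncertain.

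LBP encodes the lipopolysaccharide-binding protein, which hands bacterial endotoxin to CD14 and the TLR4 receptor with its partner LY96. Among the members it varied most, with 367, 218 and 123 FPKM in High-Low livers, against 296, 224 and 526 FPKM in 2×Trp livers. High-Low replicate 3 was lowest and 2×Trp replicate 3 highest, 4.29 times apart, and the groups overlapped. The means were 236 ± 123 FPKM in High-Low and 348 ± 158 FPKM in 2×Trp (SD, n = 3 each). The log2 fold change was -0.61 (SE 0.46), with a 95% interval from -1.68 to 0.46 and an adjusted p of 0.998 in limma. Leaving out 2×Trp replicate 3 gave -0.26. Leaving out a High-Low library gave -0.21 for replicate 3 and -0.99 for replicate 1. LBP lies at chr17:46838034-46868669 in susScr3, next to its relative BPI, a neutrophil protein listed at no more than 0.80 FPKM.

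CD14 had 1021, 1226 and 764 FPKM in High-Low, against 1054, 1370 and 1442 FPKM in 2×Trp, with overlapping groups. TLR4 was at 1.34 to 1.51 FPKM in High-Low and 1.84 to 2.17 FPKM in 2×Trp without overlap, and LY96 at 1.02 to 1.93 FPKM in High-Low and 1.01 to 2.98 FPKM in 2×Trp. CD14, TLR4 and LY96 are named here as partners of LBP and were chosen after their values were seen.

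**Figure D3:**
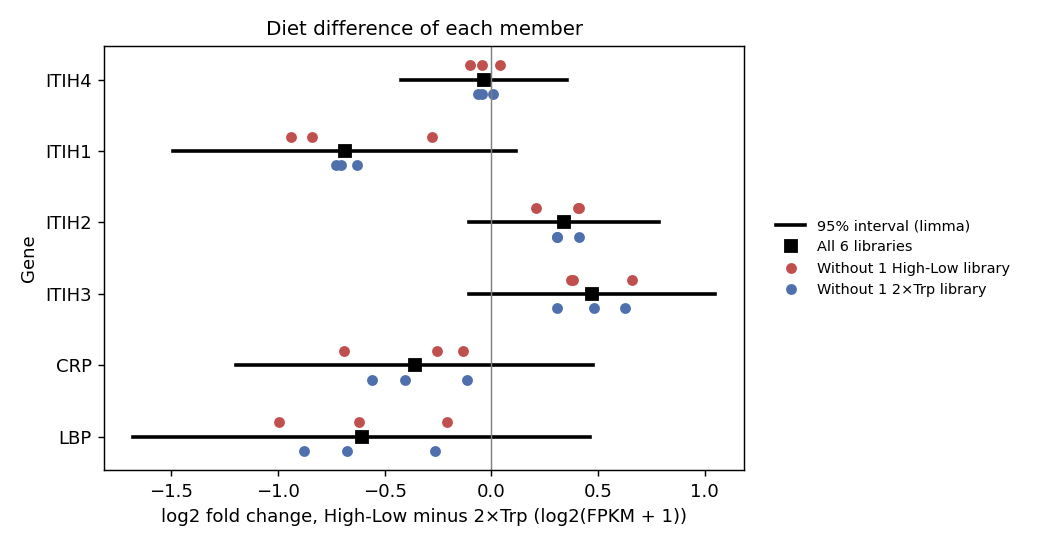
Log2 fold change of each member, High-Low minus 2×Trp on the log2(FPKM + 1) scale, with its 95% interval from limma (black) and the value when 1 High-Low library (red) or 1 2×Trp library (blue) is left out. All 6 intervals span 0. The ITIH4 interval is the narrowest, from -0.42 to 0.36, and the LBP interval the widest, from -1.68 to 0.46.

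By mean level over the 6 libraries the order was ITIH4, ITIH1, ITIH3, ITIH2, LBP and CRP. ITIH4 (1838 ± 129 FPKM) exceeded ITIH1 (1602 ± 495 FPKM) in 4 of 6 libraries, and these neighbours did not differ beyond their spread (SD, n = 6). Within High-Low the mean was 1818 FPKM for ITIH4 and 1282 FPKM for ITIH1, while in 2×Trp the order of the means turned round, at 1857 FPKM for ITIH4 and 1922 FPKM for ITIH1. In High-Low the mean of ITIH3, at 1411 FPKM, also stood above that of ITIH1. ITIH1 and ITIH3 (1214 ± 317 FPKM), and likewise ITIH2 (436 ± 80.4 FPKM) and LBP (292 ± 141 FPKM), kept their order in 5 of 6 libraries each. ITIH3 exceeded ITIH2, and LBP exceeded CRP (15.8 ± 5.98 FPKM), in all 6. Among the low genes checked, the divisor behind the FPKM did not follow the listed length. Levels of different genes are therefore less certain than those of 1 gene across libraries. This also holds for the heavy chain shares and the ratio to AMBP. The listed lengths are 186 bases for ITIH4, 278 for ITIH1, 252 for ITIH3, 431 for ITIH2, 386 for LBP and 1676 for CRP. Thus the member of shortest listed length had the highest mean and that of longest the lowest. The part of the divisor in this order was not tested. Together the 6 genes held 0.407% to 0.518% of the FPKM total in High-Low libraries and 0.462% to 0.516% in 2×Trp libraries.

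No single library had all members high. The library 2×Trp replicate 3 held the highest value of CRP, LBP and ITIH1, and at the same time the lowest of ITIH3 and the second lowest of ITIH4. High-Low replicate 1 held the highest ITIH2 and ITIH3 and the lowest ITIH4, ITIH1 and CRP. High-Low replicate 2 stood above the 6-library mean for 5 of 6 members, all but LBP, and High-Low replicate 3 stood below it for 4 of 6. The mean deviation over the 6 members ran from -0.27 to 0.16 in High-Low and from -0.05 to 0.21 in 2×Trp on the log2 scale.

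**Figure D4:**
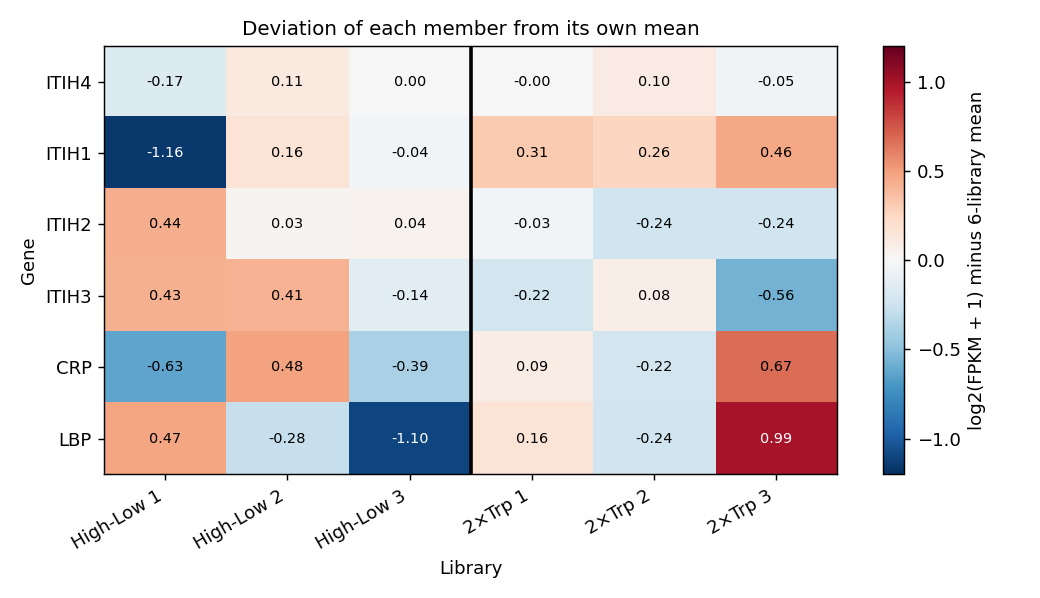
Deviation of each member's log2(FPKM + 1) from its own mean over the 6 libraries, with libraries as columns (High-Low on the left, 2×Trp on the right) and genes as rows. Red is above and blue below the mean. The 2×Trp replicate 3 column holds 0.67 for CRP and 0.99 for LBP beside -0.56 for ITIH3, and the High-Low replicate 1 column holds -1.16 for ITIH1.

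Other genes listed as positive acute phase genes likewise gave no call. Of 25 listed, 15 had a row and 14 were tested. SAA1, SAA2, SAA3, SAA4, SERPINA3, SERPINA1, FGA, ORM2, IL1RN and APCS matched no row by symbol, so nothing can be said about them. Among these 14, 8 fold changes were positive and 6 negative, the median on the log2 scale being 0.04, and 0 passed in limma or reached an unadjusted p under 0.05. MBL2, the complement-activating mannose-binding lectin, had 0.84, 12.3 and 6.35 FPKM in High-Low, against 0.76, 1.73 and 0.88 FPKM in 2×Trp. LCN2, which withholds iron from bacteria, had 3.52, 9.21 and 2.95 FPKM in High-Low, against 2.58, 1.68 and 3.005 FPKM in 2×Trp. The metalloreductase STEAP4 had 16.5, 7.45 and 12.5 FPKM in High-Low, against 5.87, 7.15 and 8.99 FPKM in 2×Trp. The protease inhibitor A2M had 1139, 13894 and 3790 FPKM in High-Low, against 2579, 1198 and 8463 FPKM in 2×Trp. Whether A2M is a positive acute phase gene in the pig was not checked. For each of these 4 genes the groups overlapped.

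Library by library, no single one held the highest value for all of these genes. Their mean log2 deviation over the 14 tested was 0.06, 0.29 and -0.07 in High-Low libraries 1, 2 and 3. It was -0.29, -0.24 and 0.25 in 2×Trp libraries 1, 2 and 3. High-Low replicate 1 held the highest value for 6 of the 14, High-Low replicate 2 for 5 and 2×Trp replicate 3 for 3, and the other libraries for 0. The fibrinogen chains FGB and FGG, chosen after their values were seen, were highest in High-Low replicate 1 and 2×Trp replicate 3. FGB had 2962, 1494 and 1754 FPKM in High-Low, against 1396, 1946 and 4301 FPKM in 2×Trp. FGG had 656, 338 and 287 FPKM in High-Low, against 295, 384 and 638 FPKM in 2×Trp. LCN2, MBL2 and A2M peaked in High-Low replicate 2. That library also had the highest summed neutrophil markers (6 with a row), at 98.5 FPKM, where High-Low replicates 1 and 3 had 30.4 and 37.1 and the 2×Trp libraries 24.7 to 35.2, and LCN2 is itself one of those markers. Their part in the values of High-Low replicate 2 was not tested.

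Genes known as negative acute phase genes gave no call, with 8 of 10 tested. Positive fold changes numbered 5 and negative ones 3, and the median on the log2 scale was 0.07. Among them 0 passed in limma and 0 reached an unadjusted p under 0.05. By library, the lowest value of the 8 fell in High-Low replicate 3 for 3 genes, in 2×Trp replicates 1 and 3 for 2 each and in High-Low replicate 1 for 1. High-Low replicate 2 held the highest value for 5 of them. The mean log2 deviation of the 8 was 0.02, 0.39 and -0.24 in High-Low libraries 1, 2 and 3. It was -0.15, 0.34 and -0.36 in 2×Trp libraries 1, 2 and 3. Thus 2×Trp replicate 3 had the lowest mean of the negative genes beside a raised mean of the positive ones. In High-Low replicate 2 both means were raised. Whether either is an acute phase response was not tested. The iron carrier TF had 9420, 16829 and 3490 FPKM in High-Low, against 3870, 12410 and 1832 FPKM in 2×Trp, lowest in 2×Trp replicate 3, the library with the highest CRP and LBP. FETUB, chosen after its values were seen, was also lowest in that library. It had 2296, 2244 and 3204 FPKM in High-Low, against 2677, 3736 and 1417 FPKM in 2×Trp. ALB, the main plasma protein, had 19600, 19795 and 13554 FPKM in High-Low, against 9391, 15282 and 11388 FPKM in 2×Trp. The retinol carrier RBP4 was highest in 2×Trp replicate 3, with 3254, 3909 and 2903 FPKM in High-Low, against 3836, 3796 and 4708 FPKM in 2×Trp. APOA1, the main protein of high-density lipoprotein, had 16263, 19960 and 18027 FPKM in High-Low, against 31095, 23726 and 20661 FPKM in 2×Trp, with no overlap and an adjusted p of 0.998 (log2 fold change -0.46, SE 0.21).

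**Figure D5:**
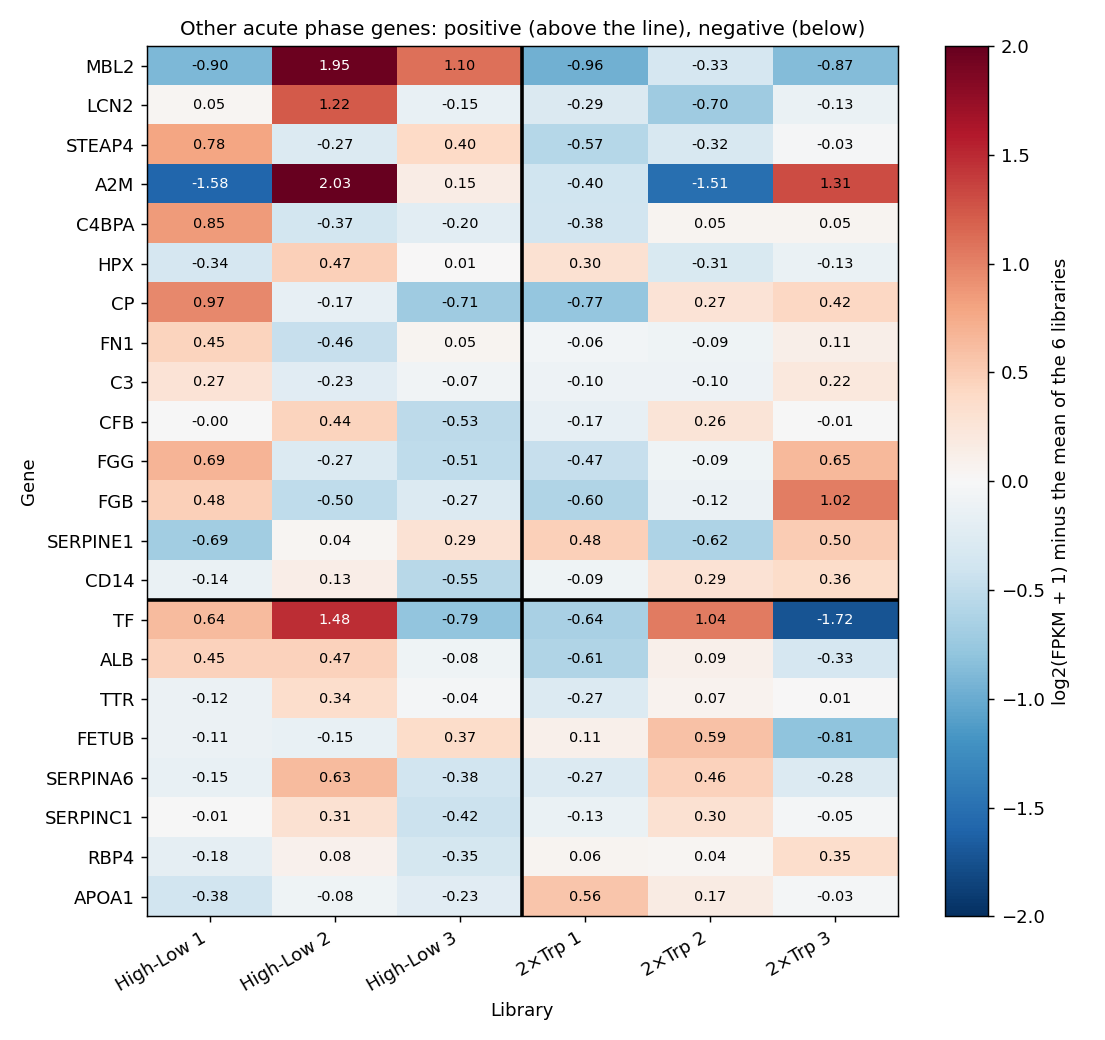
Deviation of log2(FPKM + 1) from the 6-library mean for the 14 tested genes listed as positive acute phase genes outside the member set (above the horizontal line) and the 8 tested negative ones (below it), with High-Low libraries on the left and 2×Trp libraries on the right. The highest values of A2M (2.03) and MBL2 (1.95) are in High-Low replicate 2, FGB (1.02) is highest in 2×Trp replicate 3, and no column is red throughout the upper block.

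Most cytokine transcripts were near the floor of the tables. Of 14 listed, 9 had a row and 2 were tested, with 0 passing in limma and 0 at an unadjusted p under 0.05. IL1B, TNF, OSM, LIF and IL11 matched no row by symbol. IL6 and IL22 were listed at 0 in all 6 libraries. CCL2, which recruits monocytes, had 0.39, 6.59 and 3.75 FPKM in High-Low, against 1.011, 1.64 and 0.96 FPKM in 2×Trp. IL18 had 1.77, 1.12 and 1.83 FPKM in High-Low, against 1.66, 2.01 and 5.24 FPKM in 2×Trp, highest in 2×Trp replicate 3.

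The signalling genes that carry interleukin-6 and interleukin-1 into the hepatocyte gave no call either. Of 28 listed, 25 had a row and 23 were tested. SOCS3, CEBPB and CEBPD matched no row by symbol. Positive fold changes numbered 9 and negative ones 14, and the median on the log2 scale was -0.04. Of the 23, 0 passed in limma and 1 reached an unadjusted p under 0.05. That gene was IL1R1, the interleukin-1 receptor, with 40.2, 36.2 and 29.9 FPKM in High-Low, against 16.8, 13.0 and 27.2 FPKM in 2×Trp. Its groups did not overlap, and its log2 fold change was 0.92 (SE 0.29, adjusted p = 0.998 in limma). JAK1, a kinase of the interleukin-6 receptor, had 21.1, 3.78 and 13.9 FPKM in High-Low, against 9.83, 3.58 and 5.97 FPKM in 2×Trp. The fall from High-Low replicate 1 to 2 was not particular to signalling genes. The hepatocyte markers APOB (22.6 and 1.37 FPKM) and CPS1 (435 and 149 FPKM), chosen after their values were seen, shared it. High-Low replicate 2 was nonetheless highest for 4 of the 8 tested hepatocyte markers. What underlies this was not tested. IRF1 had 11.8, 5.95 and 18.7 FPKM in High-Low, against 14.0, 12.5 and 24.4 FPKM in 2×Trp. NFKBIA, the inhibitor that NF-kB itself induces, had 38.9, 43.9 and 40.2 FPKM in High-Low, against 67.7, 42.0 and 59.4 FPKM in 2×Trp.

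By library, 2×Trp replicate 3 held the highest value for 9 of the 23 signalling genes and the lowest for 0. Its mean log2 deviation over them, 0.24, was the highest of the 6 libraries. STAT3 and BCL3, chosen after their values were seen, were among the 9. STAT3 had 45.2, 11.3 and 27.3 FPKM in High-Low, against 26.9, 14.9 and 45.9 FPKM in 2×Trp. BCL3 had 4.01, 6.67 and 5.79 FPKM in High-Low, against 4.24, 4.55 and 12.1 FPKM in 2×Trp. The cytokine signalling inhibitor SOCS1, also chosen after its values were seen, peaked instead in High-Low replicate 2, at 96.0 FPKM, with at most 32.5 FPKM elsewhere.

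HAMP encodes hepcidin, the hormone that blocks iron export from cells, and it could not be measured, but genes of its control were. Of 26 listed hepcidin and iron genes, 20 had a row and 14 were tested. Among them 6 fold changes were positive and 8 negative, and their median was -0.03 on the log2 scale. Of these, 0 passed in limma and 1 reached an unadjusted p under 0.05, SMAD6, an inhibitor of BMP signalling. SMAD6 had 5.63, 11.3 and 11.5 FPKM in High-Low, against 15.7, 14.3 and 15.7 FPKM in 2×Trp, with no overlap (log2 fold change -0.69, SE 0.28, adjusted p = 0.998 in limma). TFR2, a sensor of transferrin iron in hepatocytes, had 350, 421 and 335 FPKM in High-Low, against 486, 455 and 502 FPKM in 2×Trp, also with no overlap. BMP6, made by the liver endothelium to induce hepcidin, had 34.1, 35.3 and 69.6 FPKM in High-Low, against 89.3, 53.1 and 53.3 FPKM in 2×Trp. Of the 6 genes listed for the handling of haptoglobin, 2 had a row and neither passed in limma, with 1, HBB, at an unadjusted p under 0.05. HPX, which binds free haem, had 792, 1394 and 1009 FPKM in High-Low, against 1235, 808 and 916 FPKM in 2×Trp, and HBB, a chain of haptoglobin's ligand haemoglobin, had 1793, 7122 and 4303 FPKM in High-Low, against 15745, 6094 and 15187 FPKM in 2×Trp.

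The liver transcription factors that drive many of these promoters had 7 positive and 3 negative log2 fold changes among 10 tested, with a median of 0.20. Of the 10, 0 passed in limma and 1 reached an unadjusted p under 0.05. That 1 was ONECUT1, with 5.28, 2.01 and 2.46 FPKM in High-Low, against 0.64, 1.46 and 1.56 FPKM in 2×Trp. NR5A2 had 13.0, 10.6 and 11.2 FPKM in High-Low, against 8.30, 10.3 and 9.38 FPKM in 2×Trp. The groups did not overlap for either gene. PROX1 had 3.53, 1.502 and 2.27 FPKM in High-Low, against 1.85, 2.57 and 1.05 FPKM in 2×Trp.

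The genes most like each member over the 6 libraries were sought among 2703 named genes with a mean of 10 FPKM or more, by Pearson's r of log2(FPKM + 1). Between 11 and 66 of these genes passed an r of 0.9 with each member, so a high value marks no gene out. CRP was closest to CTNNA1 and to SERPING1, the inhibitor of the first complement component (r = 0.99 and 0.98). SERPING1 had 881, 1343 and 919 FPKM in High-Low, against 1247, 1069 and 1532 FPKM in 2×Trp, in the same order of libraries as CRP. LBP was closest to CTSA and QSOX1 (r = 0.96 each). ITIH4 was closest to BAIAP2L1 and SARDH, ITIH1 to SLA-DMB and MXD4, ITIH2 to CD47 and to the bile acid importer SLC10A1, and ITIH3 to DDC and GALNT11 (r from 0.96 to 0.99). DDC, the decarboxylase that makes serotonin and dopamine, had 60.9, 67.3 and 38.1 FPKM in High-Low, against 34.2, 50.3 and 26.7 FPKM in 2×Trp.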

How the data were processed

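Per the labels' protocols, RNA of frozen newborn liver was taken up in Trizol and sequenced from TruSeq RNA libraries (Illumina). Tools named in the submitters' processing notes are HTSeq 0.6.1, TopHat2 2.0.12 and Bowtie2 2.2.3, with the assembly susScr3. The sources used here give neither the step behind the values nor its annotation or strand setting. The deposited values carry no unit in their headers and were read as FPKM made by the authors, since they are not whole numbers and their totals differ. Among genes under 0.3 FPKM the commonest ratio between libraries gave the relative depth. The divisor implied by those steps, per listed base, was 3.79 times larger for listed lengths of 200 to 400 than for 2000 to 5000. Read counts were therefore not recovered, no count model was run, and no counting interval can be given. Only genes under 0.3 FPKM in every library entered, which favours short genes with large divisors, so this fold may be too high. ITIH4, ITIH2 and CRP have listed lengths outside both ranges.

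Ensembl symbols were found for 11804 of 25322 identifiers. In at least 3 libraries 10901 genes reached 1 FPKM. These were fitted on log2(FPKM + 1) in limma (3.58.1, under R 4.3.3) with a mean trend and robust variance, and Benjamini-Hochberg adjustment ran over all of them. Fold changes are High-Low minus 2×Trp on that scale, which understates changes of low genes. This fit was also run on simulated data, and the outcome is not reported here. Same-numbered libraries were not paired by the labels. The members and gene lists were chosen with earlier results of these data known. Named genes are the members, the 2 genes most like each, and from each list up to 4 genes of largest change, or all genes of short lists. One gene that this rule names is not reported here. No sequences are printed, and promoter motifs were not searched. Figures were drawn with matplotlib 3.10.9.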

Additional observations from a re-analysis of the deposited data

How the results depend on the processing

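All 6 members stayed short of the threshold in all 15 alternatives, and 87 of the 90 recomputed log2 fold changes kept their sign. The exceptions were all ITIH4, at 0.0012 with upper-quartile scaling, 0.041 without High-Low replicate 1 and 0.0078 without 2×Trp replicate 2 (range without single replicates -0.099 to 0.041). Leaving out single replicates gave -0.94 to -0.28 for ITIH1, 0.21 to 0.41 for ITIH2, 0.31 to 0.66 for ITIH3, -0.69 to -0.11 for CRP and -0.99 to -0.21 for LBP. Array quality weights gave LBP -1.29 (adjusted p = 0.258, range over its alternatives 0.258 to 1.00). Over all genes, 1 was higher and 0 lower. A count of 1 lower came with scaling to the same total, quantile normalization or array weights, and leaving out single replicates gave 1 to 2 higher. No member level moved by 1 SD when set relative to the median gene of its library. The ITIH1 to ITIH3 log2 ratio, chosen after seeing the data with its alternatives, differed by -1.16, and by -0.65 without High-Low replicate 1. With a replicate block the calls stayed at 1 higher and 0 lower, and the members' fold changes were the same. Genes at an unadjusted p under 0.05 numbered 304 there, in place of 345. That count rose to 1789 with array quality weights and to 1412 without High-Low replicate 2, so it depends strongly on single libraries. The lowest adjusted p of a member in limma was 0.258 (LBP) with the weights and 0.360 (ITIH1) without High-Low replicate 2. Same-numbered libraries deviated with correlations of -0.22, -0.01 and 0.03, so no pairing by number showed. With 3 libraries per diet these values cannot exclude one. DESeq2 and edgeR were not run, since the values are not counts. Unknown depth and 3 libraries per diet limit what can be seen. The intervals of LBP, ITIH1 and CRP still hold a difference below -1 on the log2 scale, and that of ITIH3 reaches 1.05.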
